A study of Mus musculus with 4 samples.

Results

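The cytosolic ribosomal protein genes encode the protein part of the cytoplasmic ribosome. They were taken as the mouse protein-coding genes whose symbol is Rpl or Rps followed by a number or by p, plus Rpsa, without the Rps6k kinase genes and without symbols ending in -ps. The rule gave 89 of the 21883 protein-coding genes of the RefSeq gene table for GRCm38.p6, the assembly behind mm10. Of these, 77 encode core subunits, 46 of the large and 31 of the small subunit. The other 12 are paralogues, retrogenes or genes with like names: Rpl3l, Rpl7l1, Rpl10l, Rpl22l1, Rpl32l, Rpl36al, Rpl37rt, Rpl39l, Rps19bp1, Rps23rg1, Rps27l and Rps27rt.

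Chromatin accessibility was profiled by ATAC-seq, in which the Tn5 transposase inserts sequencing adaptors into open DNA, on 50000 bone marrow-derived macrophages per library. Bone marrow of C57BL/6 mice had been grown for 5 days with 10% M-CSF, the growth factor that drives macrophage differentiation, and every group shares this background and culture. The 4 groups were wild-type cells left untreated (WT untreated), wild-type cells given IL-4 at 10 ng/mL for 6 h (WT IL-4), and cells of genotype Slc6a8-/y left untreated (KO untreated) or given the same IL-4 dose and time (KO IL-4). Slc6a8, an X-linked gene, encodes the creatine transporter, and the stated purpose was to follow accessibility in macrophages short of creatine as they polarise. The labels give neither the age of the mice nor whether animals were pooled, and they do not say in which cells the allele is inactive.

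A ribosome is built from ribosomal RNA and close to equal amounts of each ribosomal protein, so these genes are transcribed strongly in growing cells from short, compact promoters without strong tissue bias. In mammals their mRNAs begin with a C followed by a run of pyrimidines, the terminal oligopyrimidine (TOP) tract, through which mTORC1 and the RNA-binding protein LARP1 control their translation. IL-4 drives macrophages toward an alternatively activated state, in which STAT6 acts on a distinct set of target genes and mTOR signalling is also engaged.

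Each group has 1 library, so every comparison is between libraries and not between conditions, and no test was possible. The peak lists held 17339 (WT untreated), 9930 (WT IL-4), 13714 (KO untreated) and 10443 peaks (KO IL-4). The sources used here give no read depth. A peak within 1 kb of either end of a gene's span is called an edge peak, and a gene's value is the authors' score of its highest edge peak, with its percentile within that library's own list. Scores started at 50.0 to 50.01 in each list, so a gene without an edge peak may lie just under the calling limit, and scores are ranked only within a list. Intervals quoted with a share are 95% Clopper-Pearson limits, computed exactly, and reflect counting error alone. Of 12 macrophage markers, 9 had an edge peak in WT untreated and 3 in WT IL-4, while the KO lists held 6 without and 3 with IL-4. Csf1r, which encodes the M-CSF receptor, had none in any. Among markers of other cells, Cd3d of T cells had an edge peak in all 4 libraries, S100a8 of neutrophils and Ms4a1 of B cells in WT untreated alone, and erythroid, fibroblast and mast cell markers in none. The number of macrophage markers with an edge peak and the number of peaks thus moved with the groups, and their part in the results below was not tested.

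Promoter sequence was read first, because the start of transcription is where most of the edge peaks lay. The RefSeq promoter table for GRCm38.p6 held 69 of the 89 genes, with 250 bases before and 50 after each start. In 14 of the 69 (20.3%) the annotated start base was a C followed by at least 4 pyrimidines, the form of a TOP start, against 2.17% of 17491 protein-coding promoters. The stretches of Rps21, Rpl15 and Rpl14 are shown as examples from genes with an edge peak in all 4 libraries, each with 80 bases before the start and 20 from the start on. Capitals mark the unbroken run of C and T that covers the start base.
Rps21: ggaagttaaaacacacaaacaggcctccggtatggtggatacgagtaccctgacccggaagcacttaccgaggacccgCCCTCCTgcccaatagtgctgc
Rpl15: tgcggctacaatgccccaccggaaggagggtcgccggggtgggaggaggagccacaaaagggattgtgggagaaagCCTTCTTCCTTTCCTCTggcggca
Rpl14: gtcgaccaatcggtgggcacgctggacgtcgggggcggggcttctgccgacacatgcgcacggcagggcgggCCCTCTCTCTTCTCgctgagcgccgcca
They lie at chr2:180257299-180257398 on the plus strand, chr14:18270967-18271066 on the minus strand and chr9:120571437-120571536 on the plus strand. The run covering the start measured 7 bases in Rps21, a small subunit protein, 17 in Rpl15 and 14 in Rpl14, both of the large subunit.

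A longest pyrimidine run of 8 or more bases that covered the start or touched the 5 bases on either side of it was present in 23 of 69 genes (33.3%), against 9.57% of all promoters and 9.18% of 4192 promoters of genes with an edge peak in all 4 libraries. The share with the TOP form was similar across the accessibility patterns, over few genes each. It was found in 21.9% of 32 genes with an edge peak in all 4 libraries, 19.2% of 26 with one in 1 to 3 libraries and 18.2% of 11 with none. The next stretches show Rps19 and Rpl27a, which were among the genes with the highest mean percentile, with the same marking.
Rps19: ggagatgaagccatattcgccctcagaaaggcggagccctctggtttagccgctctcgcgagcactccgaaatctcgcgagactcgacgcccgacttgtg
Rpl27a: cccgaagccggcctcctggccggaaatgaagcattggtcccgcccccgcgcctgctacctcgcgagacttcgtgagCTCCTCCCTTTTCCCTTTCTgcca
They lie on the plus strand at chr7:24884512-24884611 and chr7:109519115-109519214. Rpl27a carries a run of 20 pyrimidines over its start, whereas the annotated start of Rps19 is a purine, so no letter is in capitals.

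Genes with a peak in both untreated libraries and in neither IL-4 library are shown by Rpl35a, Rpl10a and Rpl26, all of the large subunit.
Rpl35a: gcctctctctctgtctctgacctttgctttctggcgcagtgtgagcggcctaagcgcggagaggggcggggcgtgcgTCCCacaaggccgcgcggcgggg
Rpl10a: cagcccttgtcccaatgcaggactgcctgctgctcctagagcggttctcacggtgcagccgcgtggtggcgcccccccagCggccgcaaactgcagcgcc
Rpl26: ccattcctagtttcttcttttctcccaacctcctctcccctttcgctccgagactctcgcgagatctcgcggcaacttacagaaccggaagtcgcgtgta
They lie on the plus strand at chr16:33056373-33056472, chr17:28328391-28328490 and chr11:68901486-68901585. Rpl35a has a run of 4 pyrimidines, Rpl10a a single C, and Rpl26 none over the annotated start. Rpl6 of the large subunit and Rps4x of the small subunit, which had no edge peak in any library, are shown for contrast.
Rpl6: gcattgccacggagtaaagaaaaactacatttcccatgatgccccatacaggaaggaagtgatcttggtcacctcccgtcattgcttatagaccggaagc
Rps4x: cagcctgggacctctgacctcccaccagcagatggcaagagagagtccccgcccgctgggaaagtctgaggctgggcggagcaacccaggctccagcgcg
They lie at chr5:121204421-121204520 on the plus strand and chrX:102189372-102189471 on the minus strand, and both annotated starts are purines.

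Motifs were searched on both strands of the 300 bases. The ETS family core CCGGAAGT was present in 12 of 69 ribosomal protein promoters (17.4%), against 5.28% of all promoters and 9.97% of promoters of genes with an edge peak in all 4 libraries. The YY1 motif AAGATGGC was present in 8.70%, against 3.21% and 5.61% in the same groups, and the cAMP response element TGACGTCA in 7.25%, against 2.33% and 3.89%. The GC box GGGCGG, bound by Sp1, was present in 58.0%, above the 46.3% of all promoters and below the 71.4% of promoters open in all 4 libraries. The TATA box TATAAA (11.6% against 13.3%) and the E-box CACGTG (7.25% against 7.91%) were about as frequent as in all promoters. So was the NRF1 palindrome (1.45%, 1 gene, against 1.33%). Against promoters open in all 4 libraries, the TATA box was more frequent (5.01% there). The E-box (10.997% there) and the NRF1 palindrome (2.53% there) were less frequent. ETS core carriers included Rpl11, Rps6, Rpsa, Rpl26 and Rpl37, which belong to different accessibility patterns below. A match describes letters in these windows and is not a measured binding site.

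Ribosomal protein genes had an edge peak more often than protein-coding genes at large in each library. An edge peak was present at 71 of 89 genes in WT untreated (79.8%, 95% interval 69.9 to 87.6) and 50 in WT IL-4 (56.2%, 45.3 to 66.7). The KO lists had one at 69 genes without IL-4 (77.5%, 67.5 to 85.7) and at 51 with it (57.3%, 46.4 to 67.7). The same shares over all 21883 protein-coding genes were 38.2%, 28.3%, 34.8% and 29.0%. All 4 libraries had an edge peak at 38 of the genes (42.7%, against 22.9% of all genes), and none had one at 14 (15.7%, against 58.3%). Among genes with an edge peak in any library, 50.7% of the ribosomal protein genes had one in all 4, against 55.0% of all genes. The ribosomal protein genes are short, with a median span of 3183 bp against 17170 bp. Of the 89, 44 (49.4%) had another gene's edge window within theirs, against 32.2% of all genes. Among the 45 genes without such a neighbour the shares were 73.3%, 55.6%, 71.1% and 57.8% in the same order, against 29.2%, 21.0%, 26.5% and 21.9% of all genes without one.

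**Figure D1:**
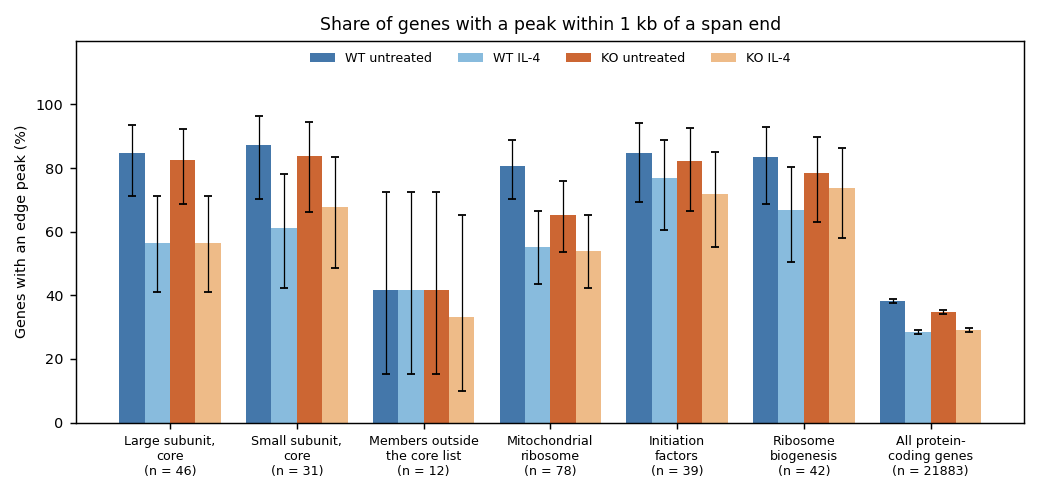
Share of genes (percent, vertical axis) with a peak within 1 kb of a span end in each of the 4 libraries, for the gene sets on the horizontal axis with the number of genes in each, and bars of 1 library each with exact 95% intervals for counting error. Core large subunit genes stood at 84.8% in WT untreated and 56.5% in WT IL-4 and core small subunit genes at 87.1% and 61.3%, above the 38.2% and 28.3% of all protein-coding genes.

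The core subunits gave most of these peaks. Of the 46 large subunit genes 39, 26, 38 and 26 had an edge peak in WT untreated, WT IL-4, KO untreated and KO IL-4, and of the 31 small subunit genes 27, 19, 26 and 21. The 12 genes outside the core had 5, 5, 5 and 4. Among them Rpl22l1, the paralogue of Rpl22, scored 320.8, 161, 188 and 133 in the same library order, and Rpl22 itself scored 53.0, 101, 192 and 136. The low WT untreated value of Rpl22 belongs to a peak at the far end of its span. A start peak of score 198 at 152325558 to 152326008 on chromosome 4 lay just outside the window of its span end, so a peak lay at the start of Rpl22 in all 4 libraries.

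The peaks sat on the starts of transcription. Of the genes with a strand in the promoter table and an edge peak, the peak covered the nearest annotated start in 49 of 55 (WT untreated), 35 of 40 (WT IL-4), 44 of 52 (KO untreated) and 37 of 40 (KO IL-4), and among all protein-coding genes with both it did so in 82.7%, 85.2%, 84.6% and 84.2%. The median peak midpoint lay at -29.5, -56.5, -35.2 and -67.8 bp from that start, negative values being upstream, in peaks with a median width of 492, 622.5, 568 and 529 bp. A few peaks lay elsewhere. Rpl18 had its edge peak at -2674.5 to -2785.5 bp from its start in all 4 libraries, and the edge peaks of Rpl3l, Rpl4 and Rpl41 were shared with the edges of Msrb1, Snapc5 and Zc3h10. Another peak lay at the start of Rpl18 in KO untreated alone, at 138. Rpl41 had a peak at its start in every library, at 163, 62.3, 111 and 84.8 in the same order, the last being its highest edge peak in KO IL-4. Over all the genes with an edge peak in any library, the highest edge peak was shared with another gene's edge in 20 of 75, Rps21 (Cables2), Rpl15 (Nkiras1) and Rpl37 (Card6) included, and such a peak cannot be assigned to one gene of the pair.

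**Figure D2:**
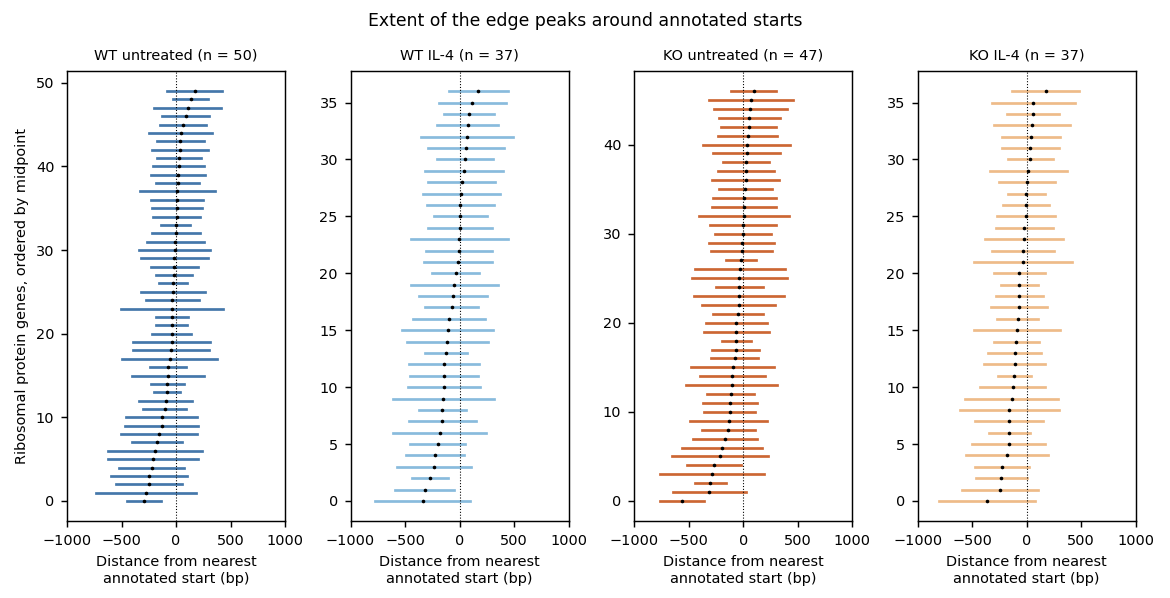
Extent of the highest edge peak of each ribosomal protein gene (horizontal bars, one per gene, ordered by midpoint) against the distance in bp from the nearest annotated start, in 4 panels of 1 library each. The bars gather around 0, with median midpoints at -29.5 to -67.8 bp.

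Of the 14 genes with no edge peak in any library, 7 were core subunits, among them Rpl6, Rpl8, Rpl17 and Rpl19 of the large and Rps2 and Rps4x of the small subunit. The other 7 were Rpl10l, Rpl32l, Rpl37rt, Rpl39l, Rps23rg1, Rps27l and Rps27rt. A span runs to the outermost annotated transcript, and 4 of the 14 had a peak inside it. Rps27l, an S27 paralogue induced by p53, had a peak at an annotated start inside its span in every library, with scores of 114, 68.2, 119 and 111 in WT untreated, WT IL-4, KO untreated and KO IL-4. Rps2 scored 127, 50.9 and 67.0 at a peak inside its span in WT untreated, WT IL-4 and KO untreated and had none in KO IL-4. Rpl17 had such a peak of 80.0 (WT untreated), 101 (KO untreated) and 50.6 (KO IL-4), and Rpl19 a single one of 50.9 in KO untreated. The other 10, Rpl6, Rpl8 and the X-linked Rps4x included, had no peak in or at the span in any list.

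The median percentile of their edge peaks was 66.4 (WT untreated), 59.0 (WT IL-4), 58.3 (KO untreated) and 53.2 (KO IL-4), against 70.6, 64.2, 67.7 and 63.4 for all genes with an edge peak. The median of all genes lay inside the 95% binomial interval of the ribosomal protein median in each library (57.8 to 73.2, 48.3 to 70.8, 46.3 to 69.5 and 44.3 to 69.4). The order also turned among genes without a neighbouring edge in both KO lists, at 68.2 against 65.7 without and 67.8 against 62.8 with IL-4, and in KO untreated among peaks of score 100 or more, at 60.8 against 58.2. The genes themselves spread over nearly the whole list. Among the highest mean percentiles were those of Rps21 (94.6), Rps29 (93.2), Rps19 (92.1), Rpl27a (91.3), Rps23, Rpl15, Rpl37, Rpl30 and Rpl34. Among the lowest were those of Rpl12 (9.67), Rps10 (12.2), Rps28 (13.1) and Rpl23a (24.4), none of which had an edge peak in all 4 libraries.

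Rps21 scored 373 (WT untreated), 195 (WT IL-4), 319 (KO untreated) and 277 (KO IL-4). Rps19, a small subunit protein whose human gene was the first linked to Diamond-Blackfan anaemia, a failure of red cell production, scored 291, 198, 337 and 194 in that order. Both stood in the upper ranks of every list, with Rps19 just under the 90th percentile in KO IL-4 at 89.7. Rpl15 scored 407, 217, 316 and 138, which ranked it at percentile 96.6 in WT untreated and 77.5 in KO IL-4. Rps23, a protein of the decoding centre, scored 346, 205, 201 and 213, and its percentile stayed between 84.8 and 94.3.

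**Figure D3:**
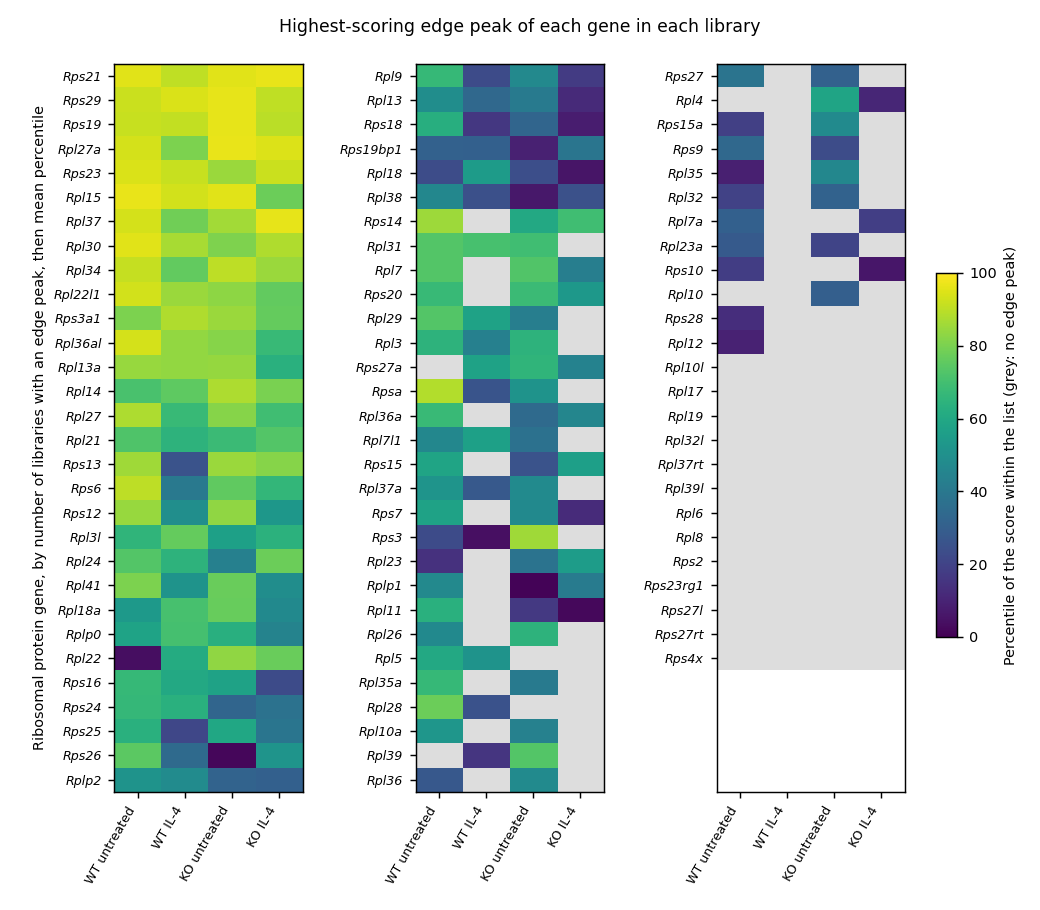
Heat map of the within-list percentile (colour scale, 0 to 100) of the highest edge peak of the ribosomal protein genes (rows, in 3 blocks, leaving out a few genes not reported by name) in the 4 libraries (columns), ordered by the number of libraries with an edge peak and then by mean percentile, with grey for no edge peak. The genes present in all 4 libraries lead the order, Rps21 first at a mean percentile of 94.6, and those without an edge peak are grey throughout.

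The P-stalk, which recruits the GTPase translation factors to the ribosome, is built from Rplp0, Rplp1 and Rplp2. Rplp0 scored 117, 118, 119 and 80.2 in WT untreated, WT IL-4, KO untreated and KO IL-4. Rplp2 scored 103, 83.6, 71.9 and 68.1, at a peak shared with the edge of Pidd1. Rplp1 scored 95.9, 50.5 and 77.2 in WT untreated, KO untreated and KO IL-4, and had no edge peak in WT IL-4.

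Rpl5 and Rpl11, which with 5S RNA form the particle that binds Mdm2 and so links ribosome assembly to p53, differed in pattern. Rpl5 scored 123 in WT untreated and 86.9 in WT IL-4 and had no edge peak in either KO library. Rpl11 scored 130 (WT untreated), 59.7 (KO untreated) and 51.0 (KO IL-4), with none in WT IL-4. Neither gene was on all 4 lists. Rps6, the substrate of S6 kinase, was on all 4 with scores of 272, 75.5, 155 and 111 in the order WT untreated, WT IL-4, KO untreated, KO IL-4. Rpl13a, the large subunit protein known for silencing inflammatory transcripts after interferon-gamma, scored 224, 157, 197 and 106 in that order.

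Rps3 and Rpsa, small subunit proteins with roles outside the ribosome in DNA repair and as a laminin receptor, were both missing from KO IL-4. Rps3 scored 66.9 in WT untreated, 51.8 in WT IL-4 and 207 in KO untreated, so its percentile was 23.0 in WT untreated and 85.8 in KO untreated. Rpsa ranked highest in WT untreated, with scores of 256 in WT untreated, 63.9 in WT IL-4 and 96.1 in KO untreated, at percentiles 88.4, 25.8 and 51.2. Rps26, of the mRNA exit channel, was on all 4 lists with 167, 70.3, 50.8 and 88.2.

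With IL-4 in wild-type cells, 23 of the 71 genes with an edge peak in WT untreated had none in WT IL-4 (32.4%, 21.8 to 44.5), and 2 of 18 without one had one (11.1%). Over all protein-coding genes 28.8% were lost and 1.89% gained, so the share lost was near the background, whose value lies inside the interval. Large subunit genes lost 14 of 39 and small subunit genes 9 of 27. None of the 23 lost peaks had any overlapping peak in WT IL-4, and neither gained peak overlapped one in WT untreated, so the counts stayed at 23 and 2 under that stricter definition (28.7% and 1.69% of all genes). Their scores in WT untreated ran from 56.1 to 228 with a median of 83.7, and 14 of 23 were below 100. With the lists cut to the same length of 9930 peaks, 11 of 55 were lost, beside 16.8% of all genes.

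The highest-scoring peak lost in wild-type cells was that of Rps14, a small subunit protein deleted in the human 5q- syndrome, which scored 228 in WT untreated and 113 and 118 in the KO untreated and KO IL-4 lists. Rpl7 followed with 162 (WT untreated), 146 (KO untreated) and 78.5 (KO IL-4), at a peak shared with the edge of Rdh10. The X-linked Rpl36a scored 142 (WT untreated), 74.5 (KO untreated) and 81.5 (KO IL-4). These 3 genes were on every list except WT IL-4, as were Rpl11, Rpl23, Rplp1, Rps7, Rps15 and Rps20, 9 in all. That is 10.1% of the ribosomal protein genes, against 3.36% of all protein-coding genes (736 genes). Both shares count genes with no edge peak in any library, which are more common among all genes, and the difference was not tested. The remaining lost peaks were those of Rpl35a, Rpl10a, Rpl26, Rps27, Rps9, Rpl7a, Rpl23a, Rpl36, Rpl32, Rps15a, Rps10, Rps28, Rpl12 and Rpl35. The gained peaks were those of Rps27a, a ubiquitin fusion whose peak is shared with the edge of Clhc1, at 94.8, and of the X-linked Rpl39 at 57.7.

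With IL-4 in KO cells, 20 of 69 edge peaks were lost (29.0%, 18.7 to 41.2) and 2 of 20 genes without one gained one (10.0%), beside 22.7% lost and 3.22% gained over all protein-coding genes. The background share lost again lies inside the interval. The counts were the same when any overlapping peak in the other list was barred (22.3% and 3.13% of all genes). Large subunit genes lost 13 of 38 and small subunit genes 6 of 26, and Rpl7l1 was the other loss. The lost peaks scored 62.4 to 207 in KO untreated, and 15 of 20 were below 100. With lists of equal length, 18 of 59 were lost (30.5%, 19.2 to 43.9), beside 17.5% of all genes, which lies outside that interval. Rps3 had the highest score among them, followed by Rpl39 at 147, Rpl31 at 136, Rpl3 at 123 and Rpl26 at 123. Rpl3, a protein near the peptidyl transferase centre, had scored 78.4 in WT IL-4 and was missing from KO IL-4 alone, as were Rpl7l1, Rpl29, Rpl31, Rpl37a, Rps3 and Rpsa among others. The gained peaks, of Rpl7a at 59.3 and Rps10 at 52.8, lay near the calling limit.

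Edge peaks of 10 genes were lost with IL-4 in both genotypes, which is 10 of the 65 with an edge peak in both untreated libraries (15.4%, against 10.3% of all genes with both). They were Rpl10a, Rpl23a, Rpl26, Rpl32, Rpl35, Rpl35a, Rpl36, Rps9, Rps15a and Rps27. Rpl35a had the highest WT untreated score of these, 139 in WT untreated and 82.2 in KO untreated, at a peak shared with the edge of Iqcg. Rpl10a scored 106 and 85.8, Rpl26 96.4 and 123, and Rpl23a 71.9 and 62.4 in the same libraries. The highest score among the 10 in either untreated list was 139. The edge peaks of Rps9 lay at different places, at its start in WT untreated and 3172 bp from it in KO untreated, and that of Rps15a in WT untreated lay 11251 bp from its start. A lower peak of score 51.7 lay at the start of Rps15a in WT untreated. Of the 19 genes lost in wild-type and the 18 lost in KO cells among those 65, the 10 shared genes make up 52.6% and 55.6%, against 49.9% and 54.9% over all genes.

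Loss followed the score of the peak. In wild-type cells, 12 of 16 ribosomal protein peaks in the lowest score quartile of WT untreated edge peaks were lost (75.0%), 9 of 26 in the second (34.6%), 2 of 14 in the third (14.3%) and 0 of 15 in the highest (upper bound 21.8%). The shares over all protein-coding genes in those quartiles were 67.9%, 35.9%, 11.2% and 0.383%, inside the interval of the ribosomal protein genes in each quartile. In KO cells the losses were 8 of 22, 9 of 19, 2 of 18 and 1 of 10 (36.4%, 47.4%, 11.1% and 10.0%), against 56.8%, 25.6%, 7.20% and 1.16%. There the second quartile stood above the lowest, and the background lay inside the interval in each quartile. The single loss in the highest KO quartile was Rps3.

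**Figure D4:**
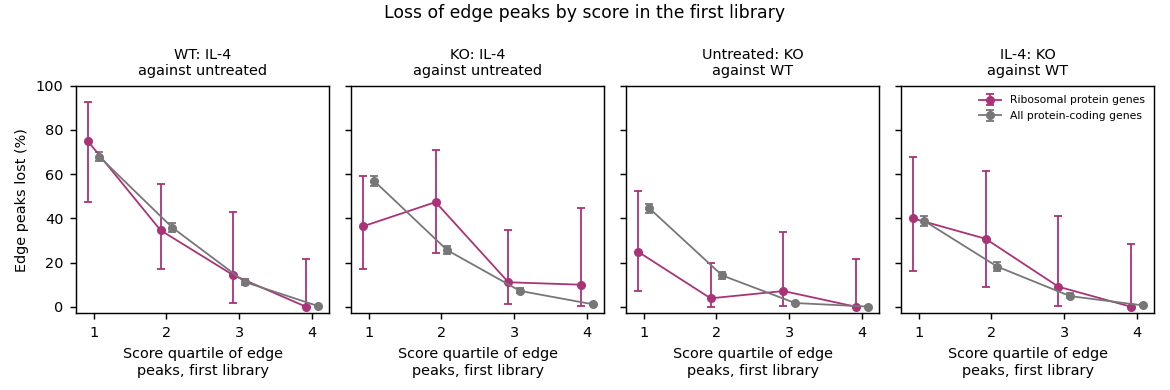
Percent of edge peaks lost (vertical axis) by score quartile of the edge peaks in the first library (horizontal axis, 1 lowest to 4 highest), for ribosomal protein genes and all protein-coding genes in each of the 4 comparisons, with exact 95% intervals. Loss was 75.0% of ribosomal protein peaks in the lowest quartile and 0 of 15 in the highest with IL-4 in wild-type cells, beside 67.9% and 0.383% of all genes.

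Between the untreated libraries the genotypes shared most ribosomal protein peaks. KO untreated lacked 6 of the 71 edge peaks of WT untreated (8.45%, 3.17 to 17.5, beside 15.1% of all genes) and had 4 of the 18 that were missing there (22.2%, beside 3.88%). The background share lost lies inside the interval, and the counts held with overlapping peaks barred (14.9% and 3.70% of all genes). The order of the shares lost turned with lists of equal length, where 8 of 55 were missing from the shortened KO list (14.5%, beside 12.2% of all genes). The share added stayed above that of all genes, at 12 of 34 (35.3%, beside 5.79%). With all peaks kept, it was 2 of 15 on autosomes (13.3%, 1.66 to 40.5, beside 4.02%). Among genes without a neighbouring edge it was 1 of 12 (8.33%, 0.211 to 38.5, beside 2.68%). The background lies inside both intervals. All genes without an edge peak in WT untreated also include the many with none in any library. The order of the shares lost also turned when only peaks of score 100 or more were kept in both lists. Then 19 of 50 genes had none left in KO untreated (38.0%, 24.7 to 52.8), beside 22.9% of all genes. Only 2 of these 19 had no edge peak at all in KO untreated, and the others had one scoring below 100. The peaks missing from KO untreated were those of Rpl28 at 179.7 in WT untreated, Rpl5 at 123, Rpl7a at 74.4, Rps10 at 63.2, Rps28 at 59.2 and Rpl12 at 56.7. Rpl28 and Rpl5 had an edge peak in both wild-type libraries and in neither KO library, with Rpl28 at 63.6 in WT IL-4. The peaks found only in KO untreated of that pair were those of Rpl39 at 147, Rps27a at 125, Rpl4 at 109 and Rpl10 at 70.6. The Rpl4 peak is the 1 shared with Snapc5, 5979 bp from the start of Rpl4, and so does not mark the start of Rpl4 itself.

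The X-linked genes are set apart because Slc6a8 lies on the same chromosome. Rpl10, Rpl36a, Rpl39 and Rps4x together had 3 edge peaks in KO untreated and 1 in each of the other lists. Rpl10, a late-joining large subunit protein, had its only edge peak in KO untreated, at 70.6. Rpl39, of the exit tunnel, scored 57.7 in WT IL-4 and 147 in KO untreated and was missing from the other lists. Rps4x had no edge peak in any list. Without these 4 genes the autosomal ones lost 22 of 70 edge peaks with IL-4 in wild-type cells (31.4%, beside 28.4% of all autosomal genes).

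In the IL-4 pair, KO IL-4 lacked 11 of the 50 edge peaks of WT IL-4 (22.0%, 11.5 to 36.0, beside 15.6% of all genes) and had 12 of the 39 missing there (30.8%, 17.0 to 47.6, beside 7.10%), also with overlapping peaks barred (15.2% and 7.05% of all genes). With only peaks of score 100 or more kept in both lists, 4 of 24 were missing (16.7%, beside 20.7% of all genes). In that setting 3 of 65 were added (4.62%, beside 4.46%), so the larger member shares were not seen there. Only 1 of those 4 and 1 of those 3 also changed with all peaks kept. The others had an edge peak below 100 in the other list. All genes without an edge peak in WT IL-4 include the many genes with none in any library, so the share present on both lists is also given over genes on either list. Of those with an edge peak in WT IL-4 or KO IL-4, 62.9% of ribosomal protein genes had one in both (49.7 to 74.8), against 71.5% of all genes. The same share was 86.7% (76.8 to 93.4) against 79.9% in the untreated pair. With IL-4 it was 65.8% (53.7 to 76.5) against 69.1% in wild-type cells and 69.0% (56.9 to 79.5) against 72.9% in KO cells. The value of all genes lies inside the interval in each comparison. Each library enters 2 of the 4 comparisons, so these are not independent.

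The 12 peaks present in KO IL-4 and missing from WT IL-4 were those of Rps14 at 118, Rps15 at 94.1, Rpl23 at 92.7, Rps20 at 90.2, Rpl36a at 81.5, Rpl7 at 78.5, Rplp1 at 77.2, Rpl7a at 59.3, Rps7 at 55.9, Rpl4 at 55.0, Rps10 at 52.8 and Rpl11 at 51.0. Of these, 9 are the genes missing from WT IL-4 alone. The 11 peaks present in WT IL-4 and missing from KO IL-4 were led by Rpl31 at 119, Rpl29 at 95.1 and Rpl7l1 at 93.9, and also included Rpl5, Rpl3, Rpl37a, Rpsa, Rpl28, Rpl39 and Rps3. Of these peaks, 11 of the 12 and 10 of the 11 scored below 100 in the list that held them.

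Other genes of the translation machinery are given from lists chosen by function. Mitochondrial ribosomal proteins, 78 genes, had an edge peak at 63, 43, 51 and 42 in WT untreated, WT IL-4, KO untreated and KO IL-4, and lost 21 of 63 (33.3%) with IL-4 in wild-type cells, beside 28.8% of all genes. In KO untreated they lacked 13 of the 63 peaks of WT untreated (20.6%, 11.5 to 32.7), against 8.45% of the cytosolic genes, a difference that was not tested. Initiation factors, 39 genes, had 33, 30, 32 and 28 in the same order and lost 5 of 33 (15.2%) in wild-type cells. Ribosome biogenesis and nucleolar genes, 42 in all, had 35, 28, 33 and 31 and lost 8 of 35 (22.9%) there, Nhp2 and Nop16 among them at 197 and 187 in WT untreated. RNA polymerase I and its factors, 11 genes, had 9, 4, 7 and 6. Genes of mTORC1 and S6 kinase, 11 genes, had 8, 7, 8 and 7, and of these Tsc1, an inhibitor of mTORC1, was lost in wild-type and Rptor, its scaffold subunit, in KO cells.

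All 9 genes on the list of elongation factors and associated proteins, Eef2k included, had an edge peak in WT untreated, KO untreated and KO IL-4. Of these, 6 had one in WT IL-4. Eef2, which moves the ribosome along the mRNA, scored 179 (WT untreated), 119 (KO untreated) and 97.5 (KO IL-4), with none in WT IL-4. Eef1b2, the exchange factor of Eef1a1, scored 166, 153 and 112 in the same libraries, and Eef2k, the kinase that inhibits Eef2, 114, 59.6 and 72.6. These show the same list pattern as Rps14 and Rpl7. Of the ribosomal proteins named otherwise, Fau was on all 4 lists at 157, 63.9, 106 and 151 in WT untreated, WT IL-4, KO untreated and KO IL-4, and Rack1 was missing from both KO lists. The 17 ribosomal protein genes linked to Diamond-Blackfan anaemia in humans had an edge peak at 17, 9, 14 and 11, and 8 of 17 (47.1%, 23.0 to 72.2, beside 28.8% of all genes) were lost with IL-4 in wild-type cells and 4 of 14 (28.6%, beside 22.7%) in KO cells.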

How the data were processed

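ATAC-seq libraries of 4 groups, 1 per group, were used as 4 peak lists. The submitters' processing notes name Bowtie2 2.2.5, MACS 1.4.2, HOMER (version not given) and the build mm10, without roles or parameters. The deposited score of a peak comes from the authors, with a minimum of 50.0 to 50.01, no header states its unit, and it was ranked only within a list. Scores are printed side by side without scaling between lists. The alternative of scores of 100 or more applied the same cutoff to every list. Median scores were 101 (WT untreated), 85.5 (WT IL-4), 94.3 (KO untreated) and 86.1 (KO IL-4). Depth per library, and how reads from ribosomal protein pseudogenes were mapped, are unstated here, which leaves the precision of presence or absence unknown.

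Genes were 21883 protein-coding spans of the RefSeq table for GRCm38.p6, whose coordinates are those of mm10. It gives spans without exons, so peaks were not assigned to exons or introns. An edge peak overlaps, by at least 1 bp, the window of 1 kb on either side of a span end. Lost and gained mean present in one list and not in the other. Strand, starts and sequences came from the RefSeq promoter table, which matched 69 of the 89 genes, and 1 listed paralogue, Rps4l, was not matched. Intervals are exact Clopper-Pearson 95% intervals. No p-value was computed.

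The genes, lists and rules were chosen with earlier results of these data known. Named genes are Rps19, Rpl5, Rpl11, Rplp0, Rplp1, Rplp2, Rpsa, Rps3, Rps6, Rpl22, Rpl22l1, Rpl13a, Rpl10, Rpl36a, Rpl39 and Rps4x, up to 15 losses and gains per comparison by score, the 10 highest and 5 lowest mean percentiles, genes with no edge peak, and up to 4 examples per list. Some genes under this rule are left unnamed here. The remaining names complete counts or were chosen after their values were seen. Alternatives were windows of 500 bp and 2.5 kb, the start end only, equal list lengths of 9930 peaks, scores of 100 or more, peaks without an overlap in the other list, core subunits, genes without a neighbouring edge, autosomes and any annotated start. The code was tested on simulated data. Intervals used SciPy 1.17.1, tables pandas 2.3.3 and NumPy 2.4.6, and figures Matplotlib 3.10.9, all under Python 3.11.15.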

Additional observations from a re-analysis of the deposited data

Results flagged for a closer look

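The edge peaks of 3 of the 89 ribosomal protein genes (3.37%) moved in opposite directions with IL-4 in the 2 genotypes, as did those of 256 of 21883 protein-coding genes (1.17%). The difference was not tested, since each group has 1 library. Both shares count genes with no edge peak in any library, which cannot move. Such genes are 15.7% of the ribosomal protein genes and 58.3% of all genes. Genes with an edge peak in any library numbered 75 and 9127. Rpl7a, a large subunit protein, had an edge peak of 74.35 in WT untreated and of 59.29 in KO IL-4 and none in the other lists, so it was lost with IL-4 in wild-type cells and gained in KO cells. Its peak is shared with the edge of Med22. Rps10, of the small subunit, showed the same pattern with 63.19 in WT untreated and 52.78 in KO IL-4. Rpl39 showed the reverse, with 57.71 in WT IL-4 and 146.88 in KO untreated.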

How the results depend on the processing

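Under the alternatives, 118 values stayed within 1.5 times the main count or within the 95% binomial interval of the main median, and 34 moved. No leave-one-out and no paired analysis was possible because each group has 1 library. With scores of 100 or more, edge peaks numbered 24 (WT IL-4), 37 (KO untreated) and 23 (KO IL-4), and the median percentile was 47.18 (WT untreated), 46.84 (WT IL-4) and 43.67 (KO IL-4). Then KO untreated lacked 19 of 50 WT untreated peaks (38.0%, beside 22.9% of all genes, the opposite order to that over all peaks). KO IL-4 lacked 4 (16.7% against 20.7%) and added 3 (4.62% against 4.46%) relative to WT IL-4. With IL-4, 1 of 39 was gained in WT (2.56% against 0.559%) and 1 of 52 in KO (1.92% against 1.32%). A gene counted here as lacking a peak may have one scoring below 100, as did all but 2 of the 19 in KO untreated. With equal list lengths, the WT untreated median was 52.24, IL-4 removed 11 of 55 in WT (16.8% of all genes) and added 6 in WT (17.6% against 5.60%) and 8 in KO (26.7% against 5.28%). KO untreated then added 12 (35.3% against 5.79%) and lacked 8 (14.5% against 12.2%) relative to WT. Among the 45 genes with no neighbouring edge, edge peaks numbered 33, 25, 32 and 26 in WT untreated, WT IL-4, KO untreated and KO IL-4. There IL-4 removed 9 and added 1 in WT, removed 7 and added 1 in KO, and KO removed 2 and added 1 untreated and removed 5 and added 6 under IL-4. With the start end only, 13 of 49 were lost with IL-4 in KO (26.5% against 22.1%). KO IL-4 then added 7 of 30 relative to WT IL-4 (23.3% against 6.96%). With any annotated start, chosen after seeing the data, 1 of 14 was gained with IL-4 in WT (7.14% against 1.8%). KO IL-4 then added 7 of 29 relative to WT IL-4 (24.1% against 7.89%). On autosomes, 1 of 15 was gained with IL-4 in WT (6.67% against 1.97%), and KO untreated added 2 of 15 (13.3% against 4.02%). These settings use fewer peaks or genes by construction. The requirement of no overlapping peak in the other list applies to losses and gains alone. Depth is unknown, so a missing edge peak may lie just below the calling limit, and list length differs between libraries.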
